A study of Mus musculus with 9 samples.

Results

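Conventional dendritic cells (cDC) of the mouse spleen fall into a pair of subsets, cDC1 and cDC2, and the RNA of resting wild type (WT) cDC1 was set here against that of resting WT cDC2. The comparison used 3 of the 9 arrays of the series: the single cDC1 array and both arrays of resting WT cDC2, named replicates 1 and 2 in their titles. All 9 arrays came from spleen cells of mouse strain 129SvEv/Tac, sorted before RNA extraction. The other 6 arrays were cDC2 as well, with 2 each of resting Batf-/- Batf3-/- cells (double knockout, DKO), activated WT cells and activated DKO cells. Activation was IFN-gamma at 100 ng/ml for 1 h, followed by LPS from E. coli at 1 µg/ml for 3 h more. The study sought genes controlled by BATF factors, and in this comparison neither factor was deleted and no stimulus was given. The labels leave unsaid whether the arrays came from separate mice or pools, which surface markers were used to sort the cells, and whether resting cells were cultured. The p-values below therefore measure the spread between samples, which may be technical.

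cDC1 take up material from dead cells and present it on MHC class I to CD8 T cells, a route called cross-presentation, and their development depends on the transcription factors IRF8 and BATF3. cDC2 present antigen mainly on MHC class II to CD4 T cells, and their development and migration depend on IRF4. The subsets also differ in the receptors by which they sense microbes: cDC1 are known for CLEC9A, a receptor for exposed actin of dead cells, and cDC2 for TLR7, a receptor for single-stranded RNA.

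Values are log2 of the deposited intensity. Each gene is represented by 1 transcript cluster, the set of probes for a gene locus; where a gene had several, the brightest by its mean across the 9 arrays stands for it. A gene was tested if at least 1 of the 5 groups had a mean above the median of all clusters that carry a single gene symbol, which left 10728 of 19938 genes. Because cDC1 has 1 array, a gene is called higher or lower in cDC1 by size alone: the cDC1 value had to lie outside both cDC2 values and at least 1 unit (2-fold) from their mean. A second reading came from limma, a linear model across all genes that takes its spread from the 8 cDC2 arrays and assumes that the lone cDC1 array varies as they do. Its adjusted p-values (Benjamini-Hochberg, two-sided) are given with that assumption, as are the standard errors (SE) after each ± sign. A variant, the replicate block, also used the replicate number of the cDC2 arrays and set the unnumbered cDC1 array at the midpoint. This variant takes shared replicate differences out of the spread and assumes that the cDC1 array carries none. Its p-values are too small if the cDC1 array does carry one. An exact permutation of 1 array against 2 cannot give a p below 0.3333, so no such test was made. Arrays measure bulk RNA, in which fewer cells of a type and less RNA per cell cannot be told apart.

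The markers of each subset went with the labels. Xcr1, the receptor for the chemokine XCL1 and the defining surface protein of cDC1, read 9.33 in cDC1 and 4.67 and 4.59 in cDC2 replicates 1 and 2. Clec9a read 8.67 in cDC1 and 3.85 and 3.70 in cDC2. Irf8 read 9.94 in cDC1 and 8.06 and 7.65 in cDC2. All 3 genes were higher in cDC1 than in either cDC2 array. In the other direction, Irf4 read 5.13 in cDC1 and 9.72 and 9.60 in cDC2, and Tlr7 read 4.08 in cDC1 and 8.42 and 9.07 in cDC2. The gap between cDC1 and the nearer cDC2 array was smallest for Irf8, at 1.88, and the cDC2 arrays lay furthest apart for Tlr7, at 0.65.

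The resting cDC2 arrays were alike for most genes and differed in ways that bear on the results. Their median gap over the genes tested was 0.17, and 244 genes (2.27%) lay at least 1 unit apart. Of those, 192 read higher in replicate 2 and 52 in replicate 1. Among the latter were Ptgs2 (9.29 and 7.43 in replicates 1 and 2), Mmp12 (11.60 and 9.92) and Ccl3 (9.76 and 8.19). Each of them also read higher on replicate 1 of resting DKO cDC2. Between the cDC2 groups, the differences of replicates 2 and 1 correlated at 0.454 to 0.695 across genes. The 5 genes furthest apart were Oas3 (7.54 and 10.84 in replicates 1 and 2), Ifi27l2a (8.46 and 11.66), Slfn1 (6.38 and 9.43), Oas2 (7.15 and 10.04) and Ifi214 (7.32 and 10.06), which interferon induces or which belong to families it induces. A list of 34 interferon-stimulated genes averaged 9.51 on replicate 1, 10.96 on replicate 2 and 8.85 on the cDC1 array. In the resting DKO arrays the average was 9.01 and 9.44, so replicate 2 of WT stood above every other resting array. Across genes, which are not independent replicates, both cDC2 arrays correlated at 0.969 with each other and at 0.895 and 0.900 with cDC1.

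By size, 419 of 10728 genes (3.91%) were higher in cDC1 and 492 (4.59%) lower, 8.49% of the genes tested in all. The median difference of all genes, cDC1 minus the cDC2 mean, was -0.0105. Being outside both cDC2 arrays without regard to size was common: 38.1% of genes lay above and 40.0% below them. At least 4-fold differences were found for 85 genes in the higher and 99 in the lower direction, and at least 16-fold differences for 8 and 9. In 99 of the 419 higher genes all cDC2 arrays of this comparison, and in 112 of the 492 lower genes the cDC1 array, read below the median of all clusters. No detection call was used, so those low readings are not known to be above background. By limma, 760 genes (7.08%) were higher and 704 (6.56%) lower. A fit that also used the replicate number of the cDC2 arrays as a block called 1708 and 1865. Without cDC2 replicate 1, limma called 382 higher and 416 lower genes, and without replicate 2 it called 447 and 381. Both the size rule and limma were met by 332 higher (3.09%) and 313 lower genes (2.92%).

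**Figure D1:**
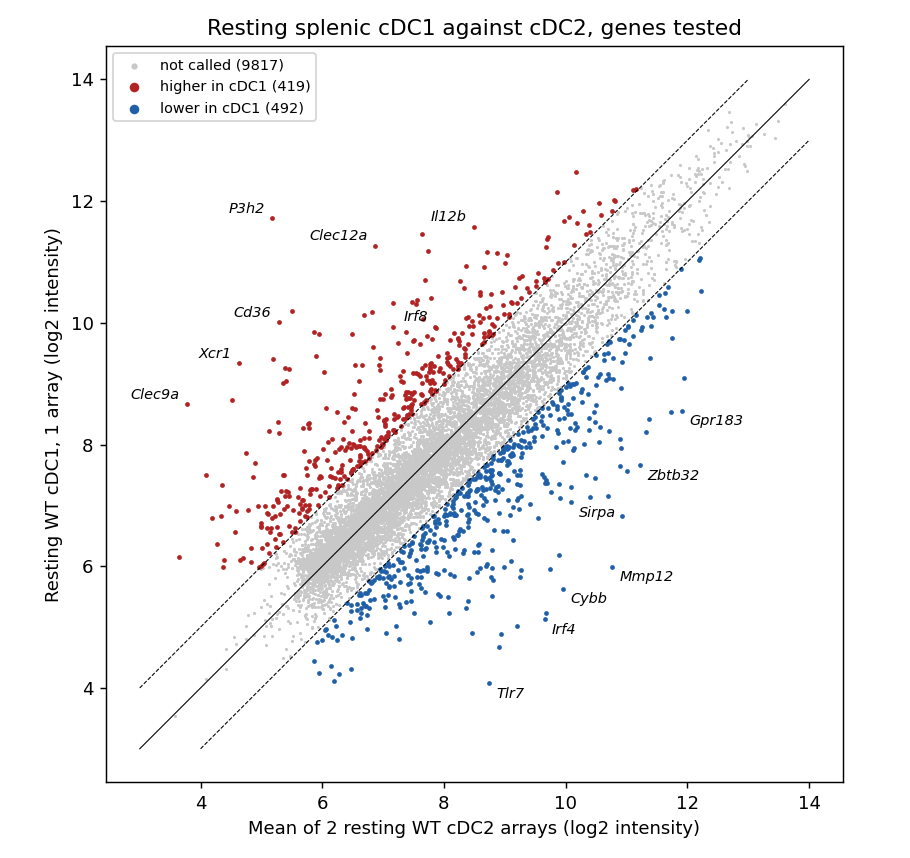
Each point is 1 of 10728 genes, with the mean of the 2 resting WT cDC2 arrays on the horizontal axis and the single resting WT cDC1 array on the vertical axis (both log2 intensity). The solid line marks equal values and the dashed lines a difference of 1; the 419 higher genes (red) and 492 lower genes (blue) lie beyond the dashed lines and outside both cDC2 arrays, with P3h2 and Clec9a far above and Tlr7, Irf4 and Mmp12 far below.

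The gene with the largest difference was P3h2, an enzyme that hydroxylates proline residues of collagen. It read 11.71 in cDC1 and 5.002 and 5.35 in cDC2, a 93.1-fold difference (6.54 ± 0.17 log2, adjusted p = 2.6e-05 by limma). No cDC2 array of any group read above 5.40. Clec9a followed at 29.6-fold (4.89 ± 0.19, adjusted p = 1.4e-04 by limma). Cd36, a scavenger receptor that binds lipids and dying cells, read 10.01 in cDC1 and 5.35 and 5.22 in cDC2 (26.4-fold), and Xcr1 was 25.99-fold higher. Clec12a, an inhibitory lectin receptor for uric acid crystals of dead cells, read 11.27 in cDC1 and 7.17 and 6.56 in cDC2. It stood in the list of cDC2 genes used here and differed in the opposite direction. Gpr141b, a G protein-coupled receptor, read 8.74 against 4.39 and 4.65. Snx22, a sorting nexin, read 9.40 against 5.14 and 5.24.

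The remaining 8 of the 15 largest higher genes lay between 3.55 (Gpr171) and 3.99 (P2ry14) units above the cDC2 mean. P2ry14, the receptor for UDP-sugars, read 9.85 in cDC1 and 5.60 and 6.13 in cDC2. Aif1, an actin-binding protein of myeloid cells, read 9.26 against 5.32 and 5.46. Naaa, an enzyme that breaks down N-acylethanolamines in the lysosome, read 9.82 against 5.85 and 6.05. Among these 3 genes the smallest gap to the nearer cDC2 array was 3.73, for P2ry14, whose cDC2 arrays lay 0.53 apart. Gusb, the lysosomal beta-glucuronidase, read 11.45 against 7.34 and 7.95. Gatm, an enzyme of creatine synthesis, read 9.24 against 5.29 and 5.60. Serpinb1a, an inhibitor of neutrophil proteases, read 9.01 against 5.36 and 5.34. Gpr171, another G protein-coupled receptor, and Mab21l3 completed the set, with Mab21l3 at 9.04 against 5.35 and 5.45. By limma the adjusted p of these 8 genes ran from 1.5e-04 (Naaa) to 0.024 (Mab21l3); that of Mab21l3 was 0.078 without cDC2 replicate 1 and 0.071 without replicate 2.

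Among the lower genes Mmp12, the macrophage elastase, differed most, although its cDC2 arrays were far apart: it read 5.99 in cDC1 and 11.60 and 9.92 in cDC2 (27.2-fold lower, -4.77 ± 1.05 log2, adjusted p = 0.033 by limma). Its adjusted p by limma was 0.098 without cDC2 replicate 1. Tlr7 was 25.5-fold lower (-4.67 ± 0.40) and Irf4 23.04-fold lower (-4.53 ± 0.28). Clec4e, the lectin receptor Mincle, which recognises glycolipids of mycobacteria and a ribonucleoprotein of dead cells, read 5.23 in cDC1 and 9.86 and 9.51 in cDC2. Cybb, the catalytic subunit of the phagocyte NADPH oxidase, read 5.63 against 9.62 and 10.31. Ddx60, an interferon-induced RNA helicase, read 5.02 against 8.43 and 9.97. Of these 6 genes Ddx60 had the smallest gap between cDC1 and the nearer cDC2 array, at 3.41 units.

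The other 9 of the 15 largest lower genes held receptors and signalling proteins. Dscam, an adhesion protein best known from neurons, read 4.67 in cDC1 and 9.09 and 8.71 in cDC2. Rasgrp1, an exchange factor that activates RAS downstream of antigen receptors, read 4.88 against 8.65 and 9.23. Siglecg, an inhibitory receptor for sialic acid, read 5.95 against 9.79 and 9.71. St8sia6, a sialyltransferase that can make ligands of such receptors, read 4.90 against 8.22 and 8.70, so that receptor and enzyme were both low in cDC1. Il2ra, the alpha chain of the IL-2 receptor, read 6.18 against 9.51 and 10.28. Zbtb32, a zinc finger repressor, read 7.66 against 11.06 and 11.39. Plk2, a stress-induced kinase, read 7.16 against 11.25 and 10.14, and Rtp4, an interferon-stimulated gene, 7.56 against 10.51 and 11.50. Tm4sf19, a tetraspanin-like membrane protein, read 6.83 against 11.15 and 10.68. By limma the adjusted p of these 9 genes lay between 4.5e-04 (Siglecg) and 0.028 (Plk2). Leaving out cDC2 replicate 1 gave 0.088 for Plk2 and 0.090 for Tm4sf19, and leaving out replicate 2 gave 0.069 for Tm4sf19.

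**Figure D2:**
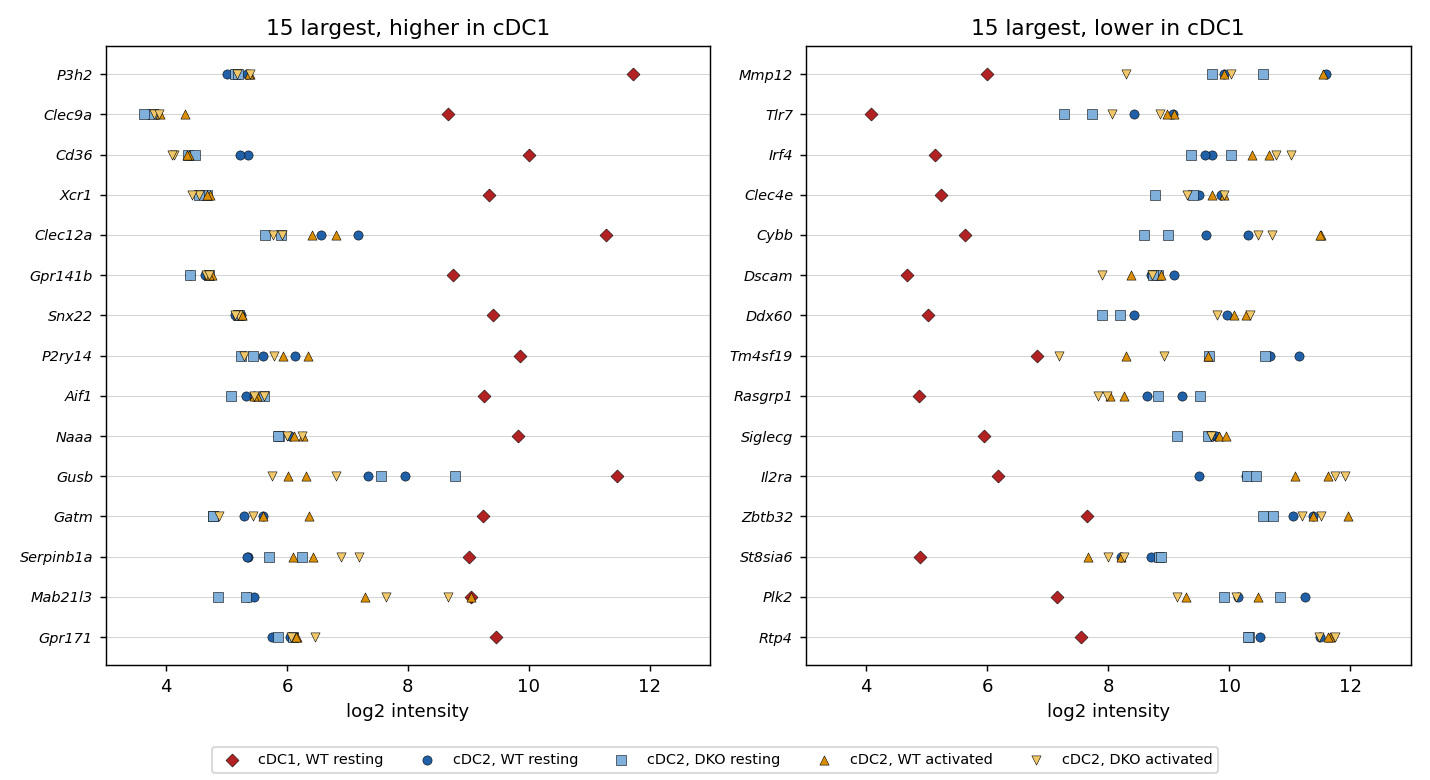
Log2 intensity of the 15 genes with the largest difference in each direction, 1 symbol per array, for cDC1 (red diamond) and the 8 cDC2 arrays by genotype and state. The cDC1 symbol stands to the right of all cDC2 symbols in the left panel, except that an activated cDC2 array (9.03) sits on it (9.04) for Mab21l3, and to the left of all of them in the right panel.

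The stretch of 250 bases before the start of transcription, as RefSeq annotates it on the mouse build GRCm38.p6, was searched for letters known from the binding sites of IRF or AP-1 factors. Of 31 genes named above, 26 had a RefSeq window and 8 held a match. The windows of 4 of the 8 are shown, chosen with the matches known. The IRF motif was searched as GAAA, 2 bases of any kind and GAAA, and the AP-1 motif as TGANTCA, on both strands, where matches of one motif may overlap those of another. Capitals mark the matches, and each line runs 5′ to 3′ along the strand of the gene up to the base before its start. The windows are chrX:9469325-9469574 (Cybb, minus strand), chr8:61927837-61928086 (Ddx60, plus strand), chr13:19732952-19733201 (Gpr141b, minus strand) and chr6:129349994-129350243 (Clec12a, plus strand).
Cybb: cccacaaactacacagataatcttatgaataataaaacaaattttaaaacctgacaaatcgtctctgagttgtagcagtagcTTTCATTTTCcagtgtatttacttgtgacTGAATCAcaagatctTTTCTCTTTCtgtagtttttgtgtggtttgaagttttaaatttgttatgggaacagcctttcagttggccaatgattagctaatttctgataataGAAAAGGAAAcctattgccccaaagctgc
Ddx60: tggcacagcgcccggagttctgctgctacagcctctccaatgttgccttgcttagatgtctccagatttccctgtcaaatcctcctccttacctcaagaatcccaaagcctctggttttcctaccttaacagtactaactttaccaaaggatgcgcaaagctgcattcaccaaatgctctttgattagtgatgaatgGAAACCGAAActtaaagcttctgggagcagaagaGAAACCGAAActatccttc
Gpr141b: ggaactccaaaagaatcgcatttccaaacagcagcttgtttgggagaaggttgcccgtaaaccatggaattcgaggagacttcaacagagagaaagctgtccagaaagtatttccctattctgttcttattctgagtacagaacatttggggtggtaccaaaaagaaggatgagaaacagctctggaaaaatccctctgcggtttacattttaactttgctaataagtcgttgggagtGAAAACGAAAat
Clec12a: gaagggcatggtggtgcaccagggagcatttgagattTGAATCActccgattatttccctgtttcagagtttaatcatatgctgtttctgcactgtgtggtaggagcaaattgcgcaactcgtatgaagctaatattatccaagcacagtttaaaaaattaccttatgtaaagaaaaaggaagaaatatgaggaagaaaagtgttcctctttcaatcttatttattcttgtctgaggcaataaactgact
Cybb, low in cDC1, had 3 IRF matches, starting 168, 124 and 29 bases before the start, and an AP-1 match at 139. Ddx60, also low in cDC1, had IRF matches at 53 and 19 bases. Of the genes high in cDC1, Gpr141b had an IRF match at 12 bases and Clec12a an AP-1 match at 213. The other 4 genes with a match were Aif1 (IRF letters) and P2ry14 (AP-1 letters), both high in cDC1, and Plk2 (IRF letters) and Mmp12 (AP-1 letters), both low; for P2ry14 and Mmp12 only some of several annotated starts had it. A match is a description of these letters and is no evidence of binding.

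Over all genes, the IRF letters were in the windows of 38 of 384 lower genes with a RefSeq window (9.9%) and of 12 of 339 higher genes (3.54%). They were in 284 of 8610 genes tested (3.3%) and in 978 of all 32851 windows (2.98%). Among the lower genes, members of the interferon-stimulated and IFN-gamma-responsive GTPase lists held them in 13 of 19 (68.4%) and the other lower genes in 25 of 365 (6.85%). The lower genes that read at least 1 unit higher on cDC2 replicate 2 than on replicate 1 held them in 15 of 43 (34.9%), and the remaining ones in 23 of 341 (6.74%). The AP-1 letters were found in 40 of 384 lower genes (10.4%), 24 of 339 higher genes (7.08%), 5.57% of the genes tested and 6.75% of all windows. The letters of an ETS-IRF composite (GGAA, 2 bases of any kind, GAAA) were in 2.86% of the lower genes, 1.77% of the higher and 2.3% of all windows. These shares are descriptions and were not tested.

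Lists of genes with known roles were read next, beside the 3.91% of all genes tested that were higher by size and the 4.59% that were lower. Some genes stand in several lists, and near-identical family members such as the Gbp, Oas, Ifi and Clec4a genes may share probes, which leaves their single values uncertain. Within a list, the members called by size and by limma were not always the same genes, even where the counts match. Of the 30 cDC1 identity genes on the array 28 were tested: 18 were higher, 1 lower, and the median difference was 1.57. Besides Xcr1, Clec9a, Cd36, Snx22 and Naaa, the largest were Gcsam, a signalling protein first described in germinal centres (8.37 in cDC1 and 5.33 and 5.22 in cDC2), and Ppt1, a lysosomal thioesterase (10.71 against 7.71 and 7.65). The receptor Gpr33 read 7.46 against 4.73 and 4.99. Several textbook members did not reach the size rule. Itgae, the CD103 chain, read 6.72 against 5.86 and 5.90, Cd8a 6.47 against 5.79 and 5.75, and Tlr3, the receptor for double-stranded RNA, 6.35 against 5.57 and 6.24. Batf3 read 8.59 in cDC1 and 7.71 and 7.58 in cDC2 (0.95 ± 0.55, adjusted p = 0.31 by limma). The lower member was Zbtb46, a factor shared by both cDC subsets, at 7.93 against 9.05 and 9.05. By limma, 16 of the 28 were higher and 1 lower.

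Of the 31 cDC2 identity genes on the array 24 were tested, with 16 lower, 1 higher and a median of -1.31. After Tlr7 and Irf4 came Il1rn, the antagonist of the IL-1 receptor, at 7.65 in cDC1 and 11.07 and 10.70 in cDC2. Sirpa, the receptor for CD47 and a surface marker of cDC2, read 7.05 against 10.30 and 9.88. Ms4a7, a tetraspan protein of myeloid cells, read 4.80 against 7.49 and 7.01. Fcer1g, the signalling chain of Fc receptors, read 7.47 against 9.55 and 9.73, and Cd4, carried by a part of splenic cDC2, 5.58 against 7.61 and 7.78. Of these 7 genes Cd4 had the smallest gap between cDC1 and the nearer cDC2 array, at 2.04 units. By limma, 15 of the 24 were lower and 1 higher. The higher member in both readings was Clec12a.

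**Figure D3:**
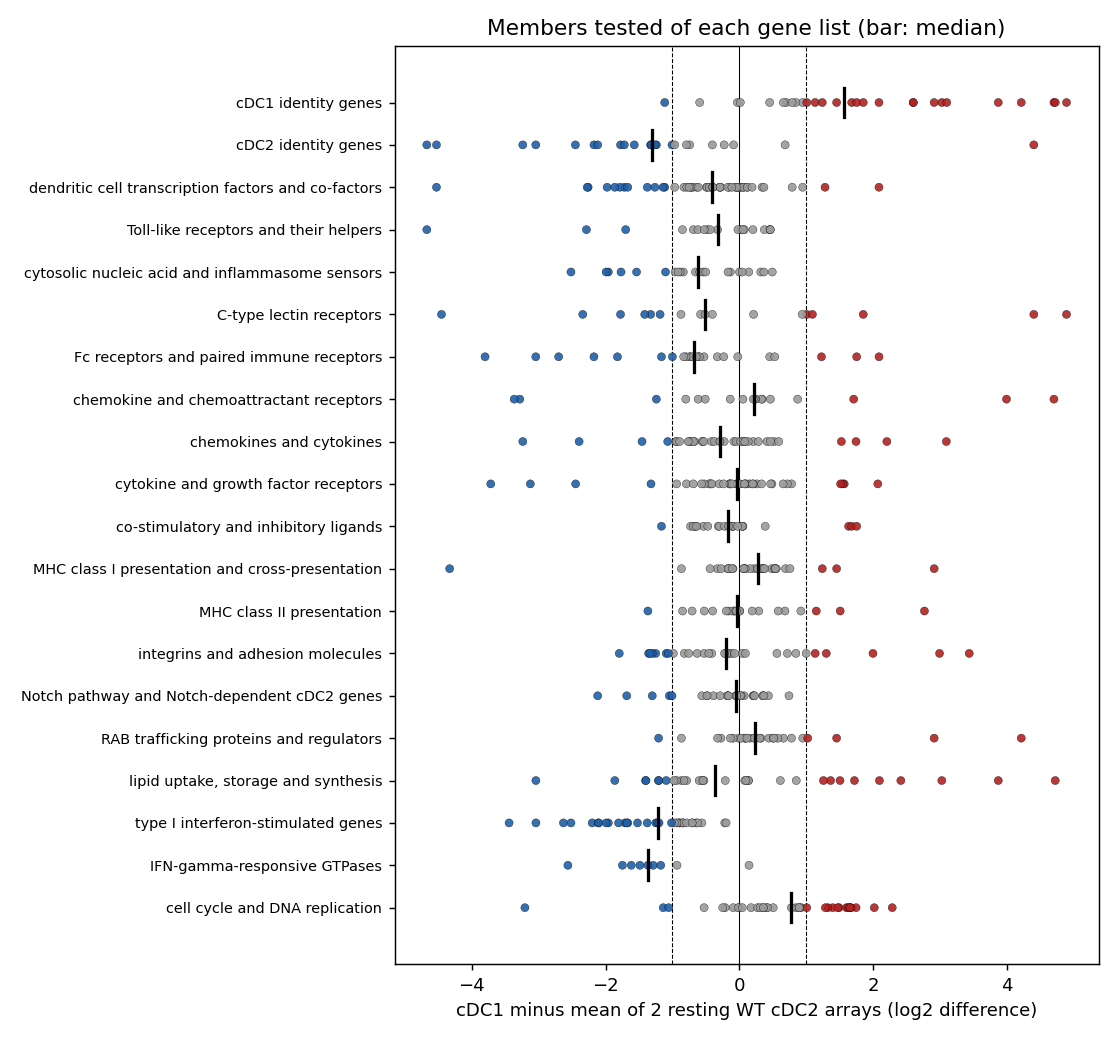
Each point is a tested member of a gene list, placed by its log2 difference between the cDC1 array and the mean of 2 resting WT cDC2 arrays. Red and blue mark genes higher and lower in cDC1 by size, grey the others; the black bar is the list's median, which is 1.57 for cDC1 identity genes, -1.31 for cDC2 identity genes, -1.21 for interferon-stimulated genes and 0.78 for cell cycle genes.

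Of 50 dendritic cell transcription factors and co-factors tested, 2 were higher, 12 lower, and the median was -0.41. The higher ones were Irf8 (2.09 ± 0.41, adjusted p = 0.023 by limma, 0.051 without cDC2 replicate 1 and 0.077 without replicate 2) and Mycl, a MYC relative that supports cDC1 growth and priming, which read 7.74 in cDC1 and 6.35 and 6.57 in cDC2. With cDC2 replicate 1 left out there were 4 higher members. Among the lower factors, Jun, an AP-1 subunit, read 8.28 against 10.59 and 10.52. Zeb2, a repressor that holds back the cDC1 fate in progenitors, read 7.41 against 9.75 and 9.60. Prdm1, the repressor BLIMP1, read 5.65 against 8.11 and 7.14, and Nr1h3, the oxysterol receptor LXR alpha, 6.79 against 8.35 and 8.95. Klf4, needed for a part of cDC2, read 5.72 against 7.58 and 7.30. By limma 12 factors were lower and 2 higher, of which 8 and 2 also met the size rule. With the replicate block 23 were lower and 4 higher. Prdm1 (adjusted p = 0.063) and Klf4 (adjusted p = 0.094) did not pass limma and passed with the block (0.0013 and 0.0022). Id2 (11.12 against 10.58 and 10.10) and Batf (7.17 against 6.74 and 7.37) did not meet the size rule, nor did Spi1, the master factor PU.1, at 10.88 against 10.67 and 10.96.

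Toll-like receptors, which sense microbial products, were lower in cDC1 where they met the rule. Of 19 Toll-like receptors and helpers tested, 0 were higher and 3 lower (median -0.33): Tlr7, Tlr1 and Cd180. By limma 0 were higher and 5 lower, as at an unadjusted p under 0.05, and with the replicate block likewise 0 and 5. Without cDC2 replicate 2 the size rule gave 1 higher and 3 lower, and the median was -0.0164; without replicate 1 it was -0.47. Tlr1, the partner of TLR2 for lipopeptides, read 7.37 in cDC1 and 9.95 and 9.36 in cDC2. Cd180, a TLR4 relative, read 9.08 against 10.77 and 10.78. Tlr9, the receptor for CpG DNA, read 10.51 against 10.50 and 11.18, inside the range of cDC2. Tlr4 was among the genes too dim to test.

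Of 22 cytosolic nucleic acid and inflammasome sensors tested, 0 were higher and 6 lower (median -0.62). By limma 0 were higher and 4 lower (0 and 8 at an unadjusted p under 0.05), and with the replicate block 0 and 9. Ddx58, the RNA sensor RIG-I, read 8.04 in cDC1 and 9.93 and 11.17 in cDC2. Ifih1, the RNA sensor MDA5, read 9.43 against 11.37 and 11.40. Nlrp3, which starts an inflammasome, read 4.97 against 7.44 and 6.03. Zbp1 (8.05 against 8.78 and 11.30) and Ddx58 belong to the interferon-stimulated list as well. Of the 6 members lower by size, 3 also passed limma. Nlrp3 and Zbp1 did not pass it and passed with the replicate block. Leaving out cDC2 replicate 1, the list had 10 lower members (median -0.95), and without replicate 2 it had 4 (median -0.25). Aim2, the sensor of cytosolic DNA, read 9.55 against 9.34 and 9.12 and Sting1 8.997 against 9.17 and 10.13, and neither met the rule.

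Lectin, Fc and scavenger receptors went both ways. Among 17 C-type lectin receptors tested 5 were higher and 6 lower (median -0.51). That median was -0.0099 without cDC2 replicate 1 and -0.83 without replicate 2. The higher ones included Cd207, langerin, at 9.13 in cDC1 and 8.02 and 6.54 in cDC2 (adjusted p = 0.21 by limma, 0.0032 with the replicate block). The lower ones included Klrd1, the CD94 chain, at 7.36 against 9.72 and 9.68. By limma 2 lectin receptors were higher and 4 lower, and with the block 5 and 7. Of 24 Fc and paired receptors 3 were higher and 7 lower (median -0.67; by limma 2 and 7, with the block 5 and 13). Treml4, a TREM-like receptor that binds dying cells, read 11.12 against 9.29 and 8.77, and Cd244a, the SLAM receptor 2B4, 6.43 against 9.38 and 8.89. Of 15 scavenger and uptake receptors 2 were higher, Cd36 and the lysosomal protein Scarb2 (9.83 against 7.89 and 8.44), and 6 lower (median -0.51). By limma 2 of the scavenger list were higher and 1 lower, and with the block 2 and 5.

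Of 18 chemokine and chemoattractant receptors tested 3 were higher (Xcr1, P2ry14 and the UDP receptor P2ry6) and 3 lower (Gpr183, Ccr9 and Cx3cr1), with a median of 0.22, or 0.12 without cDC2 replicate 1. By limma the counts were the same, 3 and 3, and with the replicate block 4 and 6. Gpr183, the oxysterol receptor EBI2 that places cDC2 at the edge of the splenic white pulp, read 8.55 in cDC1 and 11.97 and 11.86 in cDC2 (-3.37 ± 0.18, adjusted p = 4.5e-04 by limma). Ccr9, the receptor for CCL25, read 5.51 against 9.06 and 8.51, and P2ry6 read 9.04 against 7.33 and 7.33. Ccr7, the receptor that guides dendritic cells to lymph nodes, read 12.07 against 11.94 and 12.48 and did not meet the rule.

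Of 37 chemokines and cytokines tested 4 were higher and 4 lower (median -0.29). The largest was Il12b, the p40 chain of IL-12 and IL-23, at 11.58 in cDC1 and 8.94 and 8.04 in cDC2 (8.53-fold, 3.09 ± 0.35, adjusted p = 0.0047 by limma). Cxcl9, a chemokine for CXCR3-bearing T cells, read 9.70 against 6.98 and 8.02. Cx3cl1, fractalkine, read 8.09 against 6.59 and 6.09, while its receptor Cx3cr1 read 6.36 against 7.81 and 7.40, so ligand and receptor differed in opposite directions. Il15 read 9.94 against 7.16 and 9.68, and its difference rested on replicate 1. The lower members were led by Il1rn and by Ccl3, which read 6.58 against 9.76 and 8.19 (adjusted p = 0.24 by limma, 6.2e-05 with the replicate block). By limma 4 were higher and 3 lower, and with the block 5 and 10. Without cDC2 replicate 2 the size rule gave 4 higher and 9 lower members, and without replicate 1 the median was -0.0968. With the differences centred by gene length, as described at the end, 7 were lower.

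Of 41 cytokine and growth factor receptors 4 were higher and 4 lower (median -0.0342, above 0 without either cDC2 replicate, at 0.0248 and 0.0042). Acvrl1, a receptor of the TGF-beta family, read 9.79 in cDC1 and 7.97 and 7.48 in cDC2. Flt3, the growth factor receptor that both subsets need, read 10.02 against 8.19 and 8.72 (adjusted p = 0.071 by limma, 6.9e-04 with the replicate block). Il7r read 8.20 against 11.25 and 11.40, and Il2ra was given above. Both of these receptors, whose ligands also signal through the common gamma chain, were below either cDC2 array. By limma 3 receptors of the list were higher and 5 lower, and with the block 9 and 9. Of 23 co-stimulatory and inhibitory ligands and receptors 3 were higher and 1 lower (median -0.16; by limma 2 and 4, with the block 3 and 5). Leaving out cDC2 replicate 1 gave a median of -0.31, and leaving out replicate 2 gave -0.0331 with 2 lower. Pdcd1lg2, the PD-1 ligand PD-L2, read 9.17 against 7.47 and 7.61. Btla, an inhibitory receptor, read 6.86 against 4.86 and 5.36. Cd80 (10.40 against 11.08 and 11.18) and Cd86 (11.77 against 12.29 and 12.32) lay below both cDC2 arrays by less than the size rule asks and passed limma (adjusted p = 0.024 and 0.020). Neither passed without cDC2 replicate 1 (0.062 and 0.065) or replicate 2 (0.082 and 0.073).

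Genes of antigen presentation followed. Of 22 MHC class II presentation genes 3 were higher and 1 lower (median -0.0286, and 0.0030 without cDC2 replicate 2), where 8.49% of all genes tested met the size rule in either direction. H2-DMa, a chain of the peptide exchanger of class II, read 10.74 in cDC1 and 9.25 and 9.22 in cDC2, and H2-Oa, a chain of its inhibitor, 10.41 against 9.52 and 8.99. Ctse, the protease cathepsin E, read 10.31 against 7.65 and 7.44. The class II chains themselves, H2-Aa, H2-Ab1 and H2-Eb1, differed from the cDC2 mean by -0.08, -0.16 and 0.00. By limma 3 were higher and 1 lower, of which 2 and 0 also met the size rule. H2-Oa and H2-Eb2, the lower member by size, did not pass limma. With the block 6 were higher and 4 lower. Without cDC2 replicate 1 the size rule gave 4 higher and 0 lower members. Of 33 genes of MHC class I presentation and cross-presentation 3 were higher and 1 lower (median 0.27). Leaving out cDC2 replicate 2 gave 6 higher and a median of 0.32, and leaving out replicate 1 gave 2 higher and a median of -0.0149, so the sign of the median rested on replicate 1. Wdfy4, needed for cross-presentation by cDC1, read 10.34 against 8.74 and 9.47 (adjusted p = 0.057 by limma, 0.0067 with the block). Rab43, a GTPase with the same requirement, read 9.50 against 7.81 and 8.28, and Rab7b, a GTPase of late endosomes, 8.20 against 5.57 and 4.999. Wdfy4 has 2 clusters, and the dimmer one differed from the cDC2 mean by 0.69, short of the size rule. Cybb was the lower member, while its partner Cyba, the other membrane subunit of the oxidase, read 12.45 against 12.16 and 12.19. By limma 4 members of this list were higher and 2 lower, and with the block 8 and 2.

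Lists of cell structure and metabolism followed. Of 32 integrins and adhesion molecules 5 were higher and 7 lower (median -0.20; by limma 5 and 5, with the block 8 and 12). Cd81, a tetraspanin, read 11.18 in cDC1 and 8.06 and 7.43 in cDC2, and Itga1, a collagen-binding integrin chain, 7.34 against 4.39 and 4.31. Adgre1, an adhesion G protein-coupled receptor of macrophages, read 5.82 against 7.52 and 7.71. Of 28 Notch pathway and Notch-dependent genes 0 were higher and 5 lower (median -0.0466), among them Cd4, the endothelial adhesion protein Esam (5.94 against 7.28 and 7.20) and the ligand Dll4 (5.92 against 7.38 and 7.83). By limma 1 Notch list member was higher and 3 lower, and with the block 3 and 7. The median was -0.0124 without cDC2 replicate 1 and -0.15 without replicate 2, and 3 were lower with the differences centred by gene length. Of 28 RAB trafficking genes 4 were higher and 1 lower (median 0.24; by limma 3 and 2, with the block 10 and 2).

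Of 32 genes of lipid uptake, storage and synthesis 9 were higher and 7 lower (median -0.37). Alox5ap, the helper of leukotriene synthesis, read 10.68 in cDC1 and 8.75 and 7.79 in cDC2. Plpp1, a lipid phosphatase, read 6.36 against 4.12 and 4.42. Ptgs2, the inducible cyclooxygenase, read 5.32 against 9.29 and 7.43. Alox5ap, on the leukotriene route, and Ptgs2, on the prostaglandin route, thus stood on opposite sides. By limma 9 were higher and 6 lower, and with the block 11 and 14. Without cDC2 replicate 1 the size rule gave 8 higher and 11 lower.

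All 34 interferon-stimulated genes tested read below the cDC2 mean in cDC1: 19 were lower by size, 0 higher, and the median was -1.21. By limma 7 were lower and 0 higher (15 and 0 at an unadjusted p under 0.05), and with the replicate block 16 and 0. The size of this difference rested on cDC2 replicate 2. Against replicate 2 alone 31 of 34 were lower (median -1.91), and against replicate 1 alone 11 were lower and 1 higher (median -0.55). Against the mean of the resting DKO arrays the median was -0.31, with cDC1 below both of them for 19 genes and above both for 5. Rtp4 and Ifih1 were low in cDC1 beside either WT array, as given above. Isg20, an exonuclease, read 7.44 in cDC1 and 9.18 and 11.78 in cDC2 and was low beside both as well. Others followed replicate 2: Oas3, a sensor that activates RNase L, read 7.08 in cDC1 against 7.54 on replicate 1 and 10.84 on replicate 2. Of 9 IFN-gamma-responsive GTPases 7 were lower and 0 higher (median -1.37), and without replicate 2 only 1 was lower (median -0.44). Gbp7, a guanylate-binding protein, was the lowest against the mean, at 5.50 against 7.05 and 9.07. By limma 0 of the 9 were higher or lower, at an unadjusted p under 0.05 4 were lower, and with the block 4 were lower after adjustment. What set replicate 2 apart was not tested.

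**Figure D4:**
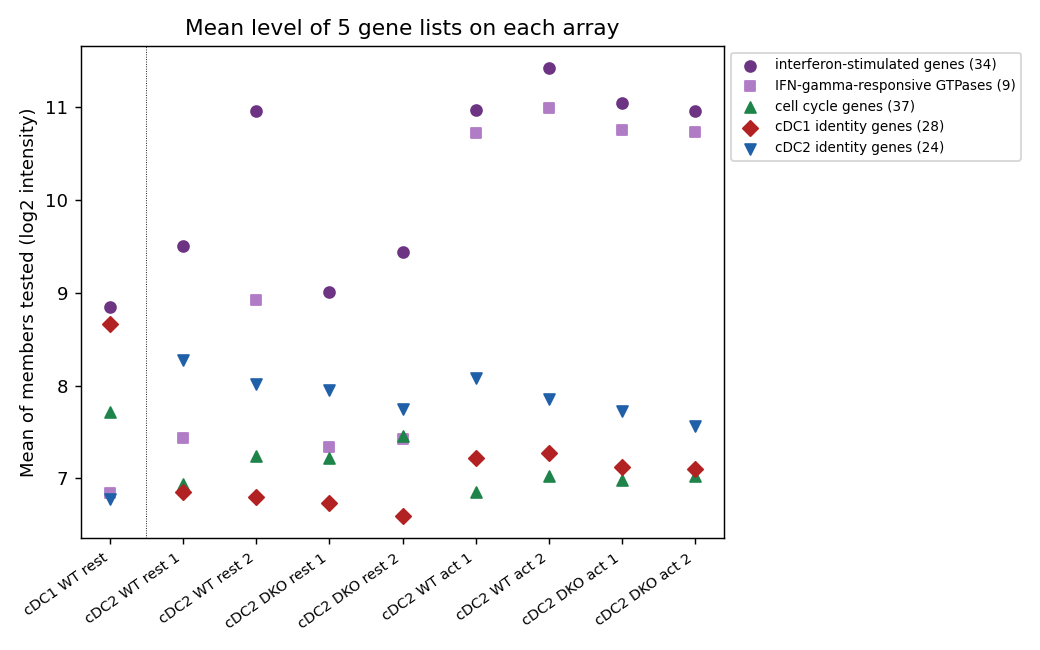
Mean log2 intensity of the tested members of 5 gene lists (number of genes in parentheses) on each of the 9 arrays, 1 symbol per list and array. The cDC1 array has the highest mean of cDC1 identity genes (8.66) and of cell cycle genes (7.71), and the interferon-stimulated genes average 10.96 on resting WT cDC2 replicate 2 against 9.51 on replicate 1.

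Of 37 cell cycle and DNA replication genes tested 14 were higher in cDC1 and 3 lower, with a median of 0.78. Cdk1, the kinase of mitotic entry, read 8.53 in cDC1 and 5.93 and 6.56 in cDC2. Ccnb2 (8.44 against 6.39 and 6.46) and Ccna2 (8.23 against 6.34 and 6.63), its cyclin partners, stood likewise above both cDC2 arrays. Mki67, the proliferation antigen, read 9.17 against 7.26 and 7.87. The lower members were the D cyclins Ccnd1 and Ccnd2 and their kinase partner Cdk6. Ccnd2 read 8.53 against 10.88 and 12.60, so this cyclin and the mitotic cyclins stood on opposite sides. By limma 14 were higher and 2 lower, of which 11 and 2 also met the size rule. With the replicate block 22 were higher and 3 lower. Without cDC2 replicate 1 the size rule called 12 higher, and without replicate 2 it called 14. The mean of the list was 7.71 in cDC1, 6.94 and 7.24 in resting WT cDC2 and 7.22 and 7.46 in resting DKO cDC2, so cDC1 stood above all 4.

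Immediate early genes, which rise when tissue is dissociated, gave 0 higher and 5 lower members of 27 tested (median -0.28). By limma 0 were higher and 1, Jun, lower (1 and 4 at an unadjusted p under 0.05), and with the block 2 and 10. Rhob read 6.76 in cDC1 and 9.08 and 8.32 in cDC2, and Nr4a1 7.96 against 9.84 and 8.84. With cDC2 replicate 1 left out there were 3 lower members. The part of cell handling in the difference was not tested.

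Markers of other cell types were read on the same 3 arrays; some were too dim to test and others were not. B cell markers averaged 5.53 in cDC1 and 5.62 and 5.53 in cDC2 over 15 genes, of which 10, among them Cd79a, Ms4a1 and Pax5, were too dim to test. Of the 5 tested 1 was higher and 1 lower. The higher one, Jchain, read 6.29 in cDC1 and 5.07 and 4.597 in cDC2, and cDC1 stood above all 8 cDC2 arrays. The lower one was Blk, a kinase of B cells, which read 5.96 in cDC1 and 9.32 and 8.26 in cDC2. Igkv19-93, an immunoglobulin segment outside this list, also met the size rule. Its 2 clusters differed from the cDC2 mean by 0.15 and 4.69. The near-equal averages of the list therefore do not exclude RNA of B or plasma cells on the cDC1 array. Markers of T and NK cells averaged 5.13 in cDC1 and 5.16 and 5.10 in cDC2 over 18 genes, with 12 too dim, among them Cd3d and Ncr1, and of the 6 tested 0 were higher and 1, Lat, lower (0 lower without cDC2 replicate 1). Markers of macrophages averaged 6.82 in cDC1 and 6.78 and 6.88 in cDC2, with 1 higher and 2 lower of 14 tested, and Cd163 and Marco too dim. Over the 14 tested the averages were 7.54 in cDC1 and 7.53 and 7.62 in cDC2. The lower ones were Adgre1, given above, and Axl, a receptor for dying cells, at 8.66 in cDC1 and 9.16 and 10.41 in cDC2. Leaving out cDC2 replicate 1 gave 2 higher and 3 lower macrophage markers, and leaving out replicate 2 gave 2 and 1. Those of monocytes and neutrophils averaged 6.35 in cDC1 and 6.39 and 6.25 in cDC2, with 1 higher and 2 lower of 17 tested (1 and 1 without cDC2 replicate 1), and Ly6g and Ccr2 too dim. The higher gene was Treml4 in both lists. Markers of red cells and platelets averaged 5.82 in cDC1 and 5.78 and 5.79 in cDC2, with 1 higher and 1 lower of 5 tested: Ppbp, a platelet chemokine, read 7.11 in cDC1 and 5.63 and 4.89 in cDC2, and Car2, a carbonic anhydrase, read 5.91 against 8.02 and 9.07. Plasmacytoid dendritic cell markers averaged 6.9965 in cDC1 and 7.37 and 7.68 in cDC2. Of that list 12 of 15 were tested, 1 was higher and 2, Ccr9 and Spib, were lower, with 4 lower without cDC2 replicate 1 and 1 without replicate 2. In cDC1, 11 of the 12 read below the cDC2 mean (median -0.62, or -0.67 without cDC2 replicate 1 and -0.23 without replicate 2). Ccr9 read 8.51 or more on both cDC2 arrays. Siglech, which defines these cells, did not pass the filter on dim genes, at 5.83 in cDC1 and 5.97 and 5.81 in cDC2. The part of other cells in the differences was not tested beyond these values.

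The other 6 cDC2 arrays were set beside the same genes. The activated WT cells have the same resting WT arrays as their control, so the values are given side by side only. Of the 419 higher genes 418 were above both resting DKO arrays and 399 above all 8 cDC2 arrays, and of the 492 lower genes 476 and 439 were below them. Among all genes tested, without regard to size, 25.5% lay above and 22.0% below all 8 arrays. The counts reuse the cDC1 value by which the genes were called, so they are no separate check of it. Of the higher genes 19 were reached by at least 1 activated array and 8 by all 4. Of the lower genes 38 were reached by at least 1 and 5 by all 4. The matching shares over all genes tested were not counted for the resting DKO arrays alone or for the activated arrays. Whether those counts are unusual is therefore not known.

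The genes named next were chosen after their values were seen. Irf8 read 9.94 in resting cDC1 and between 11.67 and 12.27 in the 4 activated cDC2 arrays, above the cDC1 level. Cxcl9 read 12.21 to 12.44 in activated cDC2, above its 9.70 in cDC1. Mycl read 7.82 to 8.42 there, against 7.74 in cDC1. Il12b, like most of the higher genes, was not reached: activated cDC2 read 10.59 to 10.93 and stayed below the 11.58 of unstimulated cDC1. In the lower direction Ceacam1, an adhesion receptor of the carcinoembryonic antigen family, read 6.03 in cDC1, 9.21 and 8.20 in resting WT cDC2, and 5.59 to 6.40 after activation. Klrd1 read 7.36 in cDC1 and 6.56 to 8.28 in activated cDC2. P3h2, Xcr1, Clec9a, Snx22 and Gpr141b stayed at or below 5.40 on all 8 cDC2 arrays, resting or activated. For Irf4 the distance to cDC1 was wider after activation, with 10.38 to 11.02 in activated cDC2 against 5.13.

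**Figure D5:**
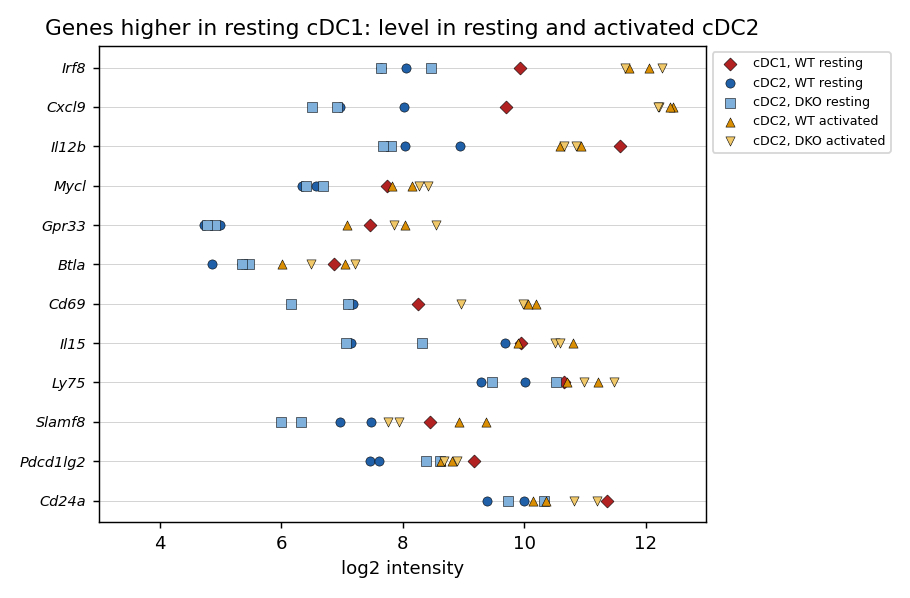
Log2 intensity of 12 genes that were higher in resting cDC1 than in resting WT cDC2, on the cDC1 array (red diamond) and the 8 cDC2 arrays by genotype and state, 1 symbol per array. The genes were picked by hand, most of them from the 20 higher genes that were not above all 8 cDC2 arrays. Of all 419 higher genes, 399 were above all 8. Activated cDC2 lie to the right of cDC1 for Irf8 and Cxcl9 and to its left for Il12b, whose activated arrays read 10.59 to 10.93 against 11.58 in cDC1.

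One property of the genes moved with the difference in a graded way. When the genes tested were split into 5 groups of equal size by the length of the gene on the genome, the median difference was 0.11 in the group of shortest genes, then 0.05, -0.0315 and -0.12, and -0.18 in the longest. The median between the cDC2 replicates stayed within 0.013 of 0 in all 5 groups. The higher genes had a median length of 16072 bases and the lower genes one of 30207, against 20768 for all. With each length group centred on its own median the size rule gave 447 higher and 433 lower genes. With that centring the lower members went from 4 to 7 among chemokines and cytokines, from 5 to 3 in the Notch list and from 1 to 0 among cDC1 identity genes, and the higher members from 1 to 2 among macrophage markers and from 1 to 0 among plasmacytoid markers. Every other list count stayed within 1.5 times.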

How the data were processed

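Per the labels' protocols, RNA was amplified with a kit made for low input and hybridised to 9 Affymetrix gene arrays. Per the submitters' processing notes, Expression Console with RMA gave the values. The deposited table holds intensity values on a linear scale, with array medians of 53.4 to 55.6, and log2 was taken first. Log2 values of the same rank differed between arrays by at most 0.309, so a difference in total RNA is not visible. Of 28853 transcript clusters, 21789 carried a single gene symbol in the platform annotation, 1621 several and 5443 none; only the first were used for genes.

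A gene entered the comparison if a group mean exceeded the median of all values of these clusters (61.3 before log2). Groups and replicate numbers came from the sample titles. The size rule was applied to the 3 resting WT arrays. limma 3.58.1 (R 4.3.3) was fitted to 9 arrays with a mean for each of 5 groups, and run on simulated data. The simulated arrays were independent and gave cDC1 the same spread as cDC2, so they could not check these assumptions. In the cDC2 groups, the differences between replicates 2 and 1 correlated at 0.454 to 0.695 across genes in 6 pairs of groups, so the numbers were taken to pair the cDC2 arrays; the cDC1 array has no number and stood at the midpoint in the fit with that block. The number of arrays limits the precision.

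The genes named are the subset markers, the 15 largest differences in each direction meeting the size rule and limma (unnamed genes, small RNAs and receptor segments passed over), up to 6 members of each list, the 5 genes furthest apart between the cDC2 arrays, and defining list members that did not meet the rule. The comparison and the lists were chosen with earlier results of these data known. Alternatives tried were other scalings, filters, cluster choices, size thresholds, arrays and variance models. Promoter windows and gene lengths are from RefSeq on GRCm38.p6.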

Additional observations from a re-analysis of the deposited data

Results flagged for a closer look

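Transcript clusters without a single gene symbol took no part in the comparison. Of 7064 such clusters 2773 were bright enough by the same filter, and 78 of them (2.81%) were higher in cDC1 and 96 (3.46%) lower by the size rule. They were looked at because they lie outside the genes compared. They carry several symbols or none, so no gene is named for them.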

How the results depend on the processing

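By size, the 419 higher and 492 lower genes became 85 and 99 at a difference of at least 2 units, and 331 and 326 when the distance was taken from the nearer cDC2 array. Other scalings, filters, cluster choices and the use of all 4 resting cDC2 arrays gave 392 to 460 higher and 435 to 519 lower genes. Leaving out a cDC2 replicate gave 407 and 530 higher and 562 and 530 lower genes. The 760 higher and 704 lower genes of limma became 382 to 447 and 381 to 416 when a cDC2 replicate was left out, which leaves fewer samples, and 1708 and 1865 with the replicate block. With only the 3 arrays compared, limma called 0 and 0 genes (1137 and 1022 at an unadjusted p under 0.05), with 1 residual degree of freedom. Subtracting the median of each of 5 gene length groups, a choice made after seeing the data, gave 447 and 433 by size. Over 132 named genes and the 8 alternatives run for single genes, which leave out the block, the variance models, the size thresholds and the 3-array fit, 992 of 1055 values kept direction and limma call, 33 lost it (17 without cDC2 replicate 1 and 9 without replicate 2), 28 gained one and 2 turned: Ifi27l2a, from -2.46 without cDC2 replicate 1 to 0.73 without replicate 2, and Slfn1, from -1.29 without replicate 1 to 1.77 without replicate 2, neither called at first. The cDC1 array could not be left out, since it has no replicate.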

Other observations

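Families of short, abundant housekeeping genes, chosen after the data were seen, read above the cDC2 mean in most members, beside 5211 of all 10728 genes tested. By size 3.91% of all genes were higher and by limma 7.08%. Of 57 cytosolic ribosomal protein genes tested 55 read above the cDC2 mean, with a median difference of 0.46, and 5 were higher by size and 19 by limma. Their mean was 11.42 in cDC1, 10.99 and 10.86 in resting WT cDC2 and 11.17 and 11.10 in resting DKO cDC2. Of 86 subunits of the respiratory chain and ATP synthase 83 read above the mean (median 0.57), with 4 by size and 37 by limma. Of 77 mitochondrial ribosomal proteins 69 did so (median 0.32), with 1 by size and 9 by limma. The part of gene length in these values was not tested.

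In the sister set of genes that activated cDC2 lose, Csf1r, the receptor for M-CSF, read 6.39 in cDC1, 7.78 and 7.64 in resting WT cDC2 and 6.32 to 6.81 in activated cDC2. Dcstamp, a protein of cell fusion, read 8.76 in cDC1, 10.61 and 9.63 in resting WT cDC2 and 6.45 to 8.36 after activation. Both genes were chosen after their values were seen.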
